A study of Homo sapiens with 4 samples.

Results

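Transcripts of splicing factors and spliceosome proteins were examined after transfection of a miR-335 mimic or of a negative control RNA into GIST-T1, a permanent human line grown from a gastrointestinal stromal tumor (GIST). The members were all array probes whose gene name begins with SRSF, HNRNP, SF3A, SF3B, SNRP, U2AF or PRPF, leaving out SNRPN and pseudogenes. This gave 69 genes, of 36337 gene and transcript names on the array, with 121 probes. The rule uses gene names and no measured value. Of the 121 probes, 115 were tested, being well above background on each array of 1 group or of both, and all 69 genes kept at least 1 tested probe.

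Both groups were GIST-T1 cells that received 100 pmol of RNA by nucleofection (an electric pulse), either the mirVana miR-335 mimic or the mirVana Negative Control #1. RNA was taken 48 h later, and 100 ng of total RNA was labeled with 1 dye and hybridized to human Agilent arrays, 2 per group. The arrays do not include untransfected cells. A mimic is a synthetic RNA that stands in for the mature microRNA.

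Most human genes are transcribed with introns that must be cut out before the messenger RNA can be translated. The spliceosome does this in steps: the U1 particle binds the start of the intron, the U2 particle with the SF3A and SF3B complexes and the U2AF dimer marks the branch point and the end of the intron, and the joined U4, U5 and U6 particles with the PRPF proteins then rearrange the assembly for catalysis. SR proteins (SRSF genes) mostly promote and hnRNP proteins often repress the use of nearby splice sites, and both families are known to regulate the splicing and stability of their own messages. Exons carrying a premature stop codon are a well known part of that control.

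A microRNA pairs with target transcripts mainly through its seed, bases 2 to 8. The 2 mature arms of miR-335 are shown as listed by RefSeq (GRCh38.p14, plus strand of chromosome 7), with the seed in capitals, because the match to the mimic's seed was sought in the member probes. The labels do not say which arm the mimic carries.
hsa-miR-335-5p (chr7:130496126-130496148): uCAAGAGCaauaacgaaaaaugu
hsa-miR-335-3p (chr7:130496162-130496183): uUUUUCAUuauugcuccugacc
The 7-base match to the 5p seed, GCTCTTG, was found in 0 of the 121 member probes, read along the transcript strand, and in 0.492% of the 20328 tested probes of the array. That to the 3p seed, ATGAAAA, was found in 0 member probes and in 1.05% of all. Probes of 60 bases cover a small part of each transcript, so this gives the content of these windows only.

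One line of the labels of both mimic samples reads miR-34a mimic, while their titles, their transfection field and the series' design text all read miR-335 mimic. An array for messenger RNA holds no direct check of the transfected RNA, so the samples are called by the title. The seed match of miR-34a-5p (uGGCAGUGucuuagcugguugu, minus strand of chromosome 1) was also found in 0 member probes. It was found in 0.462% of the 20328 tested probes, so the 0 does not tell the mimics apart.

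An array had 40.3% to 41.9% of its 50599 probes well above background, and the 4 arrays lay on 1 slide, with the controls at positions 1 and 2 and the mimic at positions 3 and 4, so array position and group cannot be told apart. Values are log2 signal minus the 75th percentile of the array, and a difference is the mimic mean minus the control mean on that scale. All 6 GIST markers on the fixed list, KIT, ANO1, ETV1, CD34, PDGFRA and PRKCQ, were well above background on all 4 arrays. Of the 16 markers of smooth muscle, Schwann cells, epithelium, leukocytes and endothelium, DES, ACTG2 and EPCAM were so on all 4 arrays, CD68 and CDH5 on 2, and the other 11 on none. With 2 arrays against 2, an exact two-sided permutation test of 1 value cannot give a p below 0.333, so the tests below are limma's, which pools the spread over all 20328 tested probes, adjusted over them by the Benjamini-Hochberg method. The labels do not state separate cultures, so these p-values measure the spread between arrays, which may be technical.

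The first comparison asked whether the splicing genes differed between mimic-transfected and control cells. By the brightest probe of each gene, 0 of the 69 genes passed an adjusted p of 0.05 in limma, whereas 2.76% of all 15454 gene names tested did so. An unadjusted p below 0.05 was found for 14 member genes, a smaller share than the 25.9% of all genes. The median difference over the 69 genes was -0.0086 on the log2 scale, beside -0.0191 over all genes, with 31 genes higher and 38 lower. Leaving out 1 array moved it between -0.0325 and 0.0142, so it had no settled sign. The differences ran from -0.33 for SRSF4 to 0.78 for HNRNPU-AS1. Of the 69 genes, 54 differed by less than 1.1-fold in either direction, and 67 had a 95% interval that lay inside 1.5-fold in both directions. Their median absolute difference was 0.07, beside 0.10 over all genes. In these bulk samples, fewer cells making a transcript and less of it per cell cannot be told apart.

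**Figure D1:**
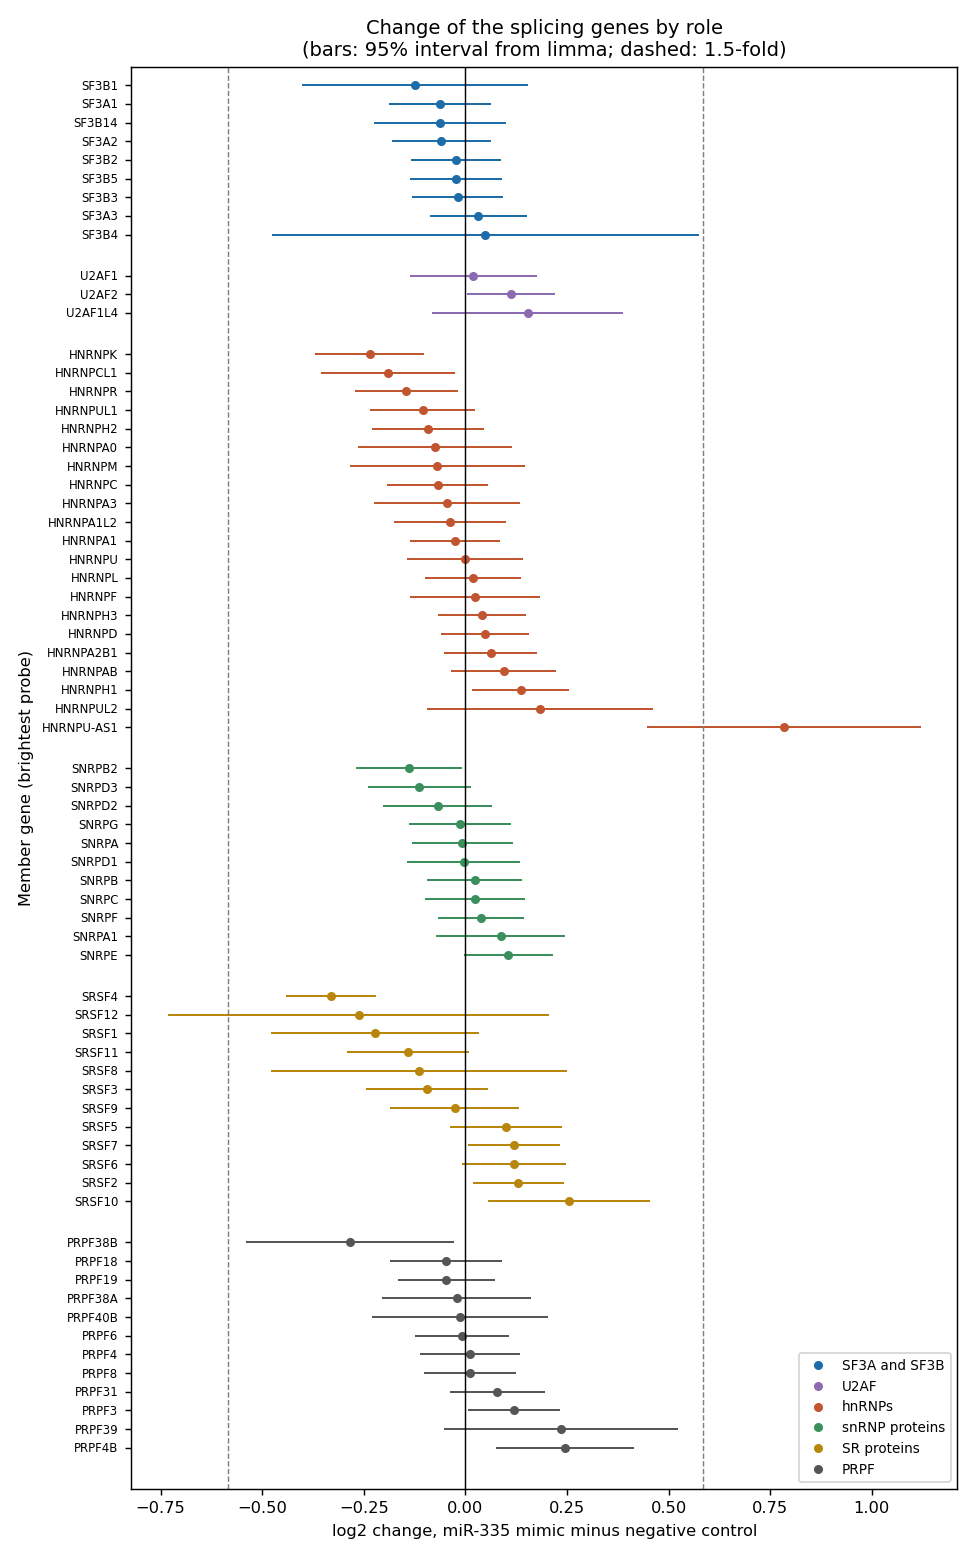
Log2 difference (mimic minus control, horizontal axis) of the brightest probe of 68 member genes, grouped and colored by role, with 95% intervals from limma and dashed lines at 1.5-fold. Most intervals cross 0; SRSF4 has the lowest value (-0.33) and HNRNPU-AS1, whose interval crosses the upper line, the highest (0.78).

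Counted by probe, 1 of the 115 passed as higher and 0 passed as lower, against backgrounds of 1.47% higher and 1.15% lower over all tested probes. The probe that passed is for HNRNPA1. Unadjusted p-values below 0.05 were found for 21 member probes (6 lower, 15 higher), a share below that of all tested probes (25.3%). The 2 mimic arrays lay wholly above the 2 control arrays in 44 member probes and wholly below them in 29, while the shares over all probes were 27.1% and 32.5%. No member probe was over 1.5-fold lower (1.47% of all probes were), and 3 were over 1.5-fold higher (2.43% of all). Both probes of HNRNPU-AS1 were among these 3. The dimmer one was well above background on the mimic arrays only, so it was tested only through the group where it was high. With the filter on all 4 arrays, only 1 probe over 1.5-fold remained, the brighter one of HNRNPU-AS1. Replicate arrays gave the scale of the error: the median absolute difference of the 115 probes was 0.048 between the 2 mimic arrays, 0.042 between the 2 control arrays and 0.0764 between the group means.

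Scaling sets the zero of these values. The external spike-in RNAs had a median log2 difference of 0.187 between mimic and control arrays, so that scaling to them moved every difference down by that amount and the median of all tested probes to -0.20. On that scale 61 member probes passed as lower and 4 as higher, while 47.2% of all probes passed in either direction. The median of the 69 genes became -0.20, close to that of all probes. The amounts of spike-in and cell RNA per array were not tested, and the values below keep the 75th percentile as their zero unless another scale is named.

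The SF3A and SF3B complexes, which hold the U2 particle on the branch point, showed the narrowest range among the families with more than 3 genes. All 9 genes differed by less than 1.1-fold, with a median of -0.0233 and 2 higher; 0 passed. SF3B1, the large subunit around the branch helix and a frequent target of mutation in blood cancers, read -0.68 and -0.44 on the mimic arrays and -0.46 and -0.42 on the control arrays. The groups overlapped, and the difference was -0.12 ± 0.10 (SE, limma adjusted p 0.471). SF3A1 gave -0.06 and SF3A3, on its brightest probe, 0.03. SF3B4 had the widest interval of the family, with values of -1.47 and -1.18 against -1.57 and -1.19, and a difference of 0.05 ± 0.18 (SE), well within the gap between its own replicates. SF3B14, now listed by RefSeq as SF3B6, a protein that contacts the branch point, gave -0.06. The other 4, SF3A2, SF3B2, SF3B3 and SF3B5, lay between -0.06 and -0.02 (smallest limma adjusted p 0.439).

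The 3 U2AF genes encode or resemble the dimer that recognizes the end of the intron. Their median difference was 0.11, all 3 being higher, although under spike-in scaling the median was -0.07 with none higher and under normexp background correction 2 of the 3 were higher. U2AF2, the large subunit that binds the polypyrimidine tract, read 5.67 and 5.69 with the mimic and 5.57 and 5.56 in the control. The groups did not overlap, yet the difference of 0.11 ± 0.04 (SE) did not pass (limma adjusted p 0.181). U2AF1, the small subunit, gave 0.02 on its brightest probe and -0.03 on the other. U2AF1L4, a relative of U2AF1, had the highest value of the family at 0.15 (limma adjusted p 0.324).

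The snRNP proteins form the core of the U particles. SNRPB, SNRPD1, SNRPD2, SNRPD3, SNRPE, SNRPF and SNRPG encode proteins of the Sm ring that is assembled on the small nuclear RNAs, and SNRPA, SNRPC, SNRPA1 and SNRPB2 encode proteins particular to U1 or U2. Over the 11 genes the median difference was -0.0041, with 5 higher, and 10 of them differed by less than 1.1-fold. In the ring, SNRPB gave 0.02, SNRPD1 -0.0041 and SNRPE 0.11, the last with mimic values of 5.66 and 5.68 against 5.58 and 5.55. SNRPE's groups did not overlap, but it did not pass (limma adjusted p 0.2). Of the U1 and U2 proteins, SNRPA gave -0.007 and SNRPA1 0.09. SNRPB2, which with SNRPA1 binds U2 RNA, was the lowest of the family at -0.14 (limma adjusted p 0.179). SNRPD2, SNRPD3, SNRPF and SNRPG lay between -0.11 and 0.04. The snRNP median was 0.016 under normexp and 0.011 when scaled to detected probes, so its sign is not set by these data.

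The SR proteins had the largest median absolute difference of the 6 families, 0.13. By the brightest probe 7 of the 12 genes were lower and 5 higher, with a median of -0.06 that stayed below 0 under every scaling. Over all 21 tested probes of the family, however, 12 were higher and 9 lower, with a median of 0.03. The sign thus depended on which probes were taken. SRSF4, a large SR protein, had the lowest difference among all member genes. It read 3.096 and 3.114 with the mimic and 3.42 and 3.45 in the control (probe at chr1:29474499-29474558, hg19, minus strand). The 2 groups were far apart beside their own spread (SD 0.013 with the mimic and 0.018 in the control), but the difference of -0.33 ± 0.04 (SE) missed the threshold over all probes (limma adjusted p 0.0521). It passed as lower under normexp (limma adjusted p 0.0148), with the filter on all 4 arrays (0.045), with an intensity trend (0.000629) and under spike-in scaling (0.0211), and its adjusted p ranged from 0.000629 to 0.531 over the 15 alternatives run.

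Other SR genes lay on both sides of 0. SRSF1, the prototype of the family, gave -0.22 (limma adjusted p 0.233), from -1.01 and -1.14 with the mimic against -0.94 and -0.77 in the control, values that lay close together. SRSF3, a small SR protein that also acts in export, gave -0.09 on its brightest probe and -0.23 on the other. SRSF11 gave -0.14, and its 2 other probes gave 0.02 and -0.05. SRSF12 gave -0.26, but 1 control array stood apart (0.13 and 0.55 in the control, 0.05 and 0.10 with the mimic). Without that array, control replicate 2, the value was -0.05. On the other side, SRSF2, SRSF5 and SRSF7 gave 0.13, 0.10 and 0.12 on their brightest probes (limma adjusted p 0.158 to 0.289), and each of their other tested probes was also above 0, by 0.03 to 0.10. All 3 became negative under spike-in scaling. SRSF6, SRSF8 and SRSF9 lay between -0.11 and 0.12 (smallest limma adjusted p 0.208).

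SRSF10, which represses splicing when dephosphorylated, had 3 tested probes, all higher. The brightest read 2.22 and 2.37 with the mimic and 2.03 and 2.05 in the control, a difference of 0.26 ± 0.07 (SE, limma adjusted p 0.143). The other 2 probes gave 0.19 and 0.10. In none of the 3 did the groups overlap, while 27.1% of all tested probes were wholly higher with the mimic. The 3 probes were read on the same 4 arrays, so they are not independent of each other. The files place the 2 probes with values of 0.26 and 0.10 on an unlocalized scaffold of chromosome 1 and only the third on the chromosome itself, where RefSeq has the gene.

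The hnRNP family was the largest, with 21 genes and 40 tested probes, and held the single call. By the brightest probe the median difference was -0.026, with 9 genes higher, and 16 of the 21 differed by less than 1.1-fold. HNRNPK, a KH-domain protein that binds C-rich RNA, was the lowest: 4.32 and 4.36 with the mimic against 4.61 and 4.54 in the control. Its difference was -0.24 ± 0.05 (SE, limma adjusted p 0.0982), and the second probe, which aligns across a gap upstream, gave -0.01. The next members in order from the bottom were HNRNPCL1 (-0.19) and HNRNPR (-0.145), and neither passed. HNRNPC, which coats nascent transcripts and binds U-rich tracts, gave -0.07, -0.06 and -0.12 on its 3 probes, of which the files place the second on chromosome 2 rather than chromosome 14. HNRNPA2B1 gave 0.06 on each of its 2 tested probes. HNRNPU, a scaffold protein of the nucleus, gave -0.0011 on its brightest probe and 0.12 on the other. A further 11 genes of the family, among them the G-tract binding HNRNPF, HNRNPH1, HNRNPH2 and HNRNPH3, the AU-rich element binding HNRNPD, and HNRNPL and HNRNPM, lay between -0.11 and 0.18 with no call (smallest limma adjusted p 0.162).

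HNRNPA1L2 is an intronless copy closely similar to HNRNPA1, and the array has 5 probes for it. They gave between -0.09 and 0.08. No stretch of 20 bases or more was shared by probes of different member genes, but full transcripts were not used here, so signal from one gene on the other's probes was not tested.

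The PRPF genes encode proteins of the later steps. Over the 13 genes the median was 0.0117, with 7 higher, and it was -0.18 under spike-in scaling. PRPF8, the large U5 protein at the center of the catalytic core, read 4.92 and 4.91 with the mimic and 4.92 and 4.88 in the control, a difference of 0.01 ± 0.04 (SE). PRPF19, the ubiquitin ligase that gives its name to the activating complex, gave -0.05, and PRPF3, a U4/U6 protein, 0.12 (limma adjusted p 0.181). PRPF4, PRPF6, PRPF18, PRPF31, PRPF38A and PRPF40B lay between -0.05 and 0.08 (smallest limma adjusted p 0.314).

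At the edges of the family, PRPF38B gave -0.28 ± 0.09 (SE, limma adjusted p 0.171), from 0.04 and 0.25 against 0.40 and 0.47, while its second probe, 5111 bases downstream, gave 0.08. PRPF39 gave 0.24 and PRPF4B, a kinase of the spliceosome now named PRP4K by RefSeq, 0.24 (limma adjusted p 0.252 and 0.124). The other 2 probes of PRPF4B gave -0.01 and 0.34. Both probes with positive values had groups that did not overlap, as did 27.1% of all tested probes in that direction, and the third did not separate them.

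The second comparison asked whether probes of 1 gene moved together, since a probe in another exon or beyond the usual end of the transcript can report a different RNA form. For each of the 31 genes with at least 2 tested probes, the change of each probe was set against that of the gene's brightest probe, array by array. This gave 46 contrasts, of which 0 passed in limma and 6 had an unadjusted p below 0.05. Over all 4874 such contrasts on the array 0% passed adjusted and 14% unadjusted, so the members stood near that background. The brightest probe itself was chosen on signal, so a dimmer probe's contrast also carries the noise of low signal.

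Among the largest member contrasts in absolute size were those of HNRNPA1, HNRNPA3, PRPF38B, SNRPE and SNRPC, all positive. The first 4 came from probes downstream of the brightest one on the gene's strand, by 2009 to 6742.5 bases between probe centers. The probe of SNRPC, a U1 protein, lay upstream. Over the 14 member contrasts at more than 500 bases downstream the median was 0.11 with 8 positive, and over the 22 at more than 500 bases upstream it was 0.04 with 14 positive. The downstream set includes a probe well above background on the mimic arrays only, which was tested only through the group where it was high. Over all genes the medians were 0.0097 downstream and 0.0289 upstream, with 52.6% and 57.6% positive.

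**Figure D2:**
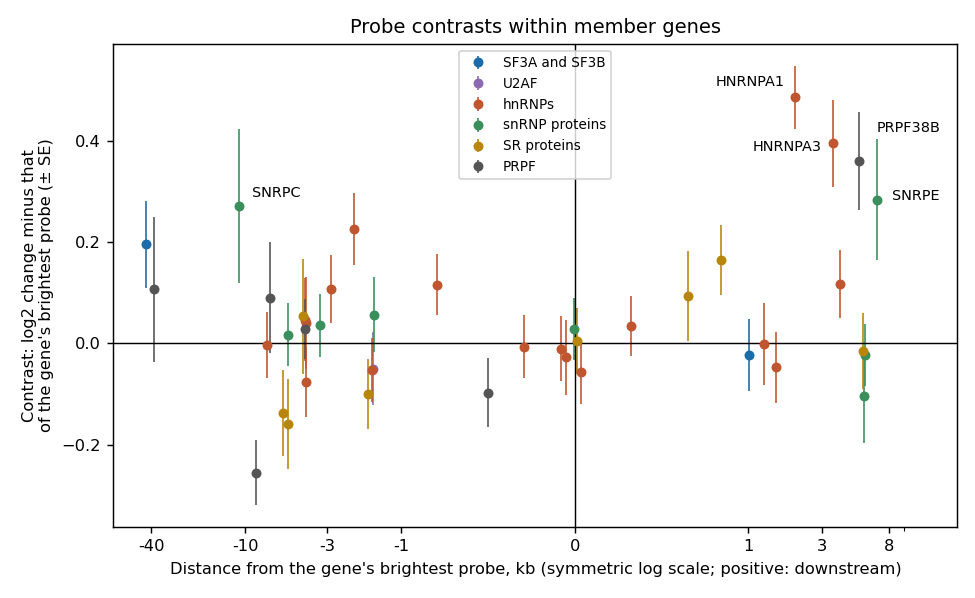
Contrast of member probes with the brightest probe of their gene (vertical axis, log2, bars are SE) against the distance between the 2 probes in kb (horizontal axis, symmetric log scale, positive is downstream), colored by role. HNRNPA1 (0.49) is the highest of the 43 contrasts drawn, followed by HNRNPA3 (0.39), PRPF38B and SNRPE, all downstream; most other points lie near 0. The 2 contrasts without a shared strand and chromosome are not drawn.

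The first 30 bases of the 60-base probes behind the contrasts of HNRNPA1 and HNRNPA3, and of the brightest probe of HNRNPA1, are given 5′ to 3′ in the orientation of the array files, to show which part of each gene was read (hg19).
HNRNPA1 brightest, chr12:54678778-54678837 (plus strand): cctgcttgggtggagaagccattgtctttg
HNRNPA1 downstream, chr12:54680787-54680846 (plus strand): gccatgcagtttacatgagctgttctgcag
HNRNPA3 downstream, chr2:178087920-178087979 (plus strand): cagaacccaatttctacgcgtgttgaataa

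HNRNPA1, an abundant shuttling hnRNP that represses splice sites, held the only called probe. The downstream probe, which the files tie to the Ensembl transcript ENST00000546500 and not to a RefSeq messenger RNA, read 1.39 and 1.37 with the mimic and 0.92 and 0.92 in the control. The groups were cleanly separated. It rose by 0.46 ± 0.04 (SE, limma adjusted p 0.0368), or 1.38-fold, below the 1.5-fold limit. The brightest probe, 2009 bases upstream, read 7.40 and 7.43 against 7.45 and 7.44, a difference of -0.03, and the third probe gave 0.08. The contrast between the called and the brightest probe was 0.49 (limma p 0.00183, adjusted p 0.133), so the difference between the 2 probes did not itself pass. The call was lost when any array was left out (limma adjusted p 0.152 to 0.196), with the replicate number as a block (0.127) and with no filter on dim probes (0.441), while the size stayed between 0.27 and 0.47 in all 15 alternatives (limma adjusted p 0.00109 to 0.441).

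HNRNPA3, a close relative of HNRNPA1, had 6 tested probes, more than any other member. The one farthest downstream, 3480 bases beyond the brightest, read 1.42 and 1.44 with the mimic and 1.04 and 1.12 in the control. Its difference was 0.35 ± 0.05 (SE, limma adjusted p 0.0678), with groups that did not overlap. The other 5 lay between -0.12 and -0.0045. A pair of them shares the same coordinates, chr2:178080329-178080388, and is shown because the sequences differ; the capital marks the difference within the first 30 bases.
HNRNPA3 first of the pair: aactacagatgatAgtttaagagaacattt
HNRNPA3 second of the pair: aactacagatgatGgtttaagagaacattt
Over 60 bases the pair differs at 3 positions, A14G, G42T and C59G, counted from the 5′ end with the first probe's base in front. The first gave -0.0045 and the second -0.12, and in neither did the groups separate.

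HNRNPU-AS1 is the only member gene whose probes all carry a noncoding RNA accession in the files. RefSeq now lists the name as a synonym of HNRNPU, and the files place both probes on the minus strand, the same as HNRNPU's own, 6468 and 10618 bases beyond the nearest HNRNPU probe in the direction of transcription. The brighter probe (chr1:245003941-245004000) read -1.01 and -1.09 with the mimic and -1.69 and -1.98 in the control. The groups were apart by more than either spread, with a difference of 0.78 ± 0.12 (SE), or 1.72-fold (limma adjusted p 0.0719). The other (chr1:245008091-245008150) read -2.04 and -2.05 against -2.66 and -3.09 and was not well above background on the control arrays. By the measured means it was 1.78-fold higher with the mimic, a difference of 0.83 ± 0.16 (SE, limma adjusted p 0.101). Raising the control signals to the lowest signal that counted as well above background on their array changed nothing, since both already lay above it. The fold is thus an estimate and not a lower limit. HNRNPU itself differed by -0.0011 and 0.12 on its 2 probes.

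**Figure D3:**
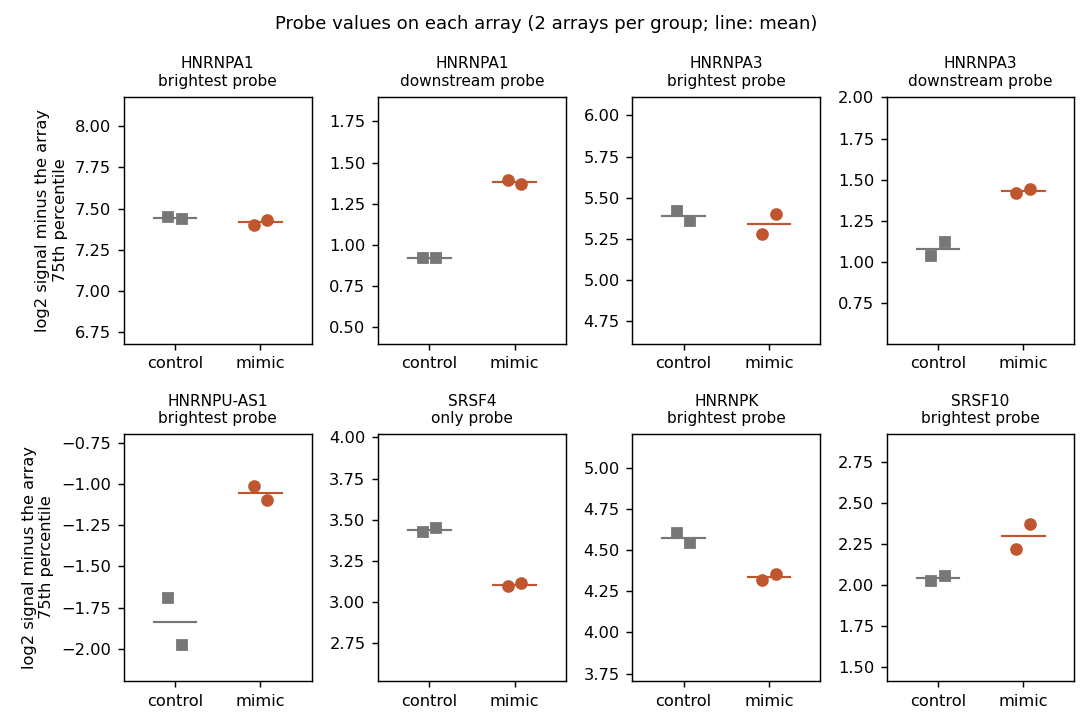
Log2 signal minus the array's 75th percentile for 8 probes on each of the 4 arrays (squares control, circles mimic, line the group mean). Each panel has its own axis of equal span. The downstream probes of HNRNPA1 and HNRNPA3 separate the groups while the brightest probes of both genes do not differ by more than 0.05, and SRSF4 and HNRNPK are lower on both mimic arrays.

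SNRPE and PRPF38B completed the downstream set. The most downstream of the 4 SNRPE probes read -1.48 and -1.18 with the mimic against -1.74 and -1.70 in the control, a difference of 0.39 (limma adjusted p 0.164), while the other 3 gave between 0.0032 and 0.11. SNRPC's upstream probe gave 0.29 ± 0.14 (SE, limma adjusted p 0.289) beside 0.02 on the brightest.

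The differences were also set against signal. Of the 115 member probes, 17 had a mean log2 value below 0, and 12 of these were higher with the mimic, with a median of 0.17. Among the 17 were probes well above background on the mimic arrays only, the dimmer one of HNRNPU-AS1 included. Such probes were tested only through the group where they were high, and both the count of 12 and the median include them. The 98 brighter ones had a median of -0.0026, with 48 higher. Over all tested probes the medians were -0.002 below 0 and -0.0172 above it. All 3 member probes over 1.5-fold were in the dim set, and normexp background correction, whose offset shrinks the differences of dim probes by construction, left 0 over 1.5-fold. The part of low signal in these values was not tested.

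**Figure D4:**
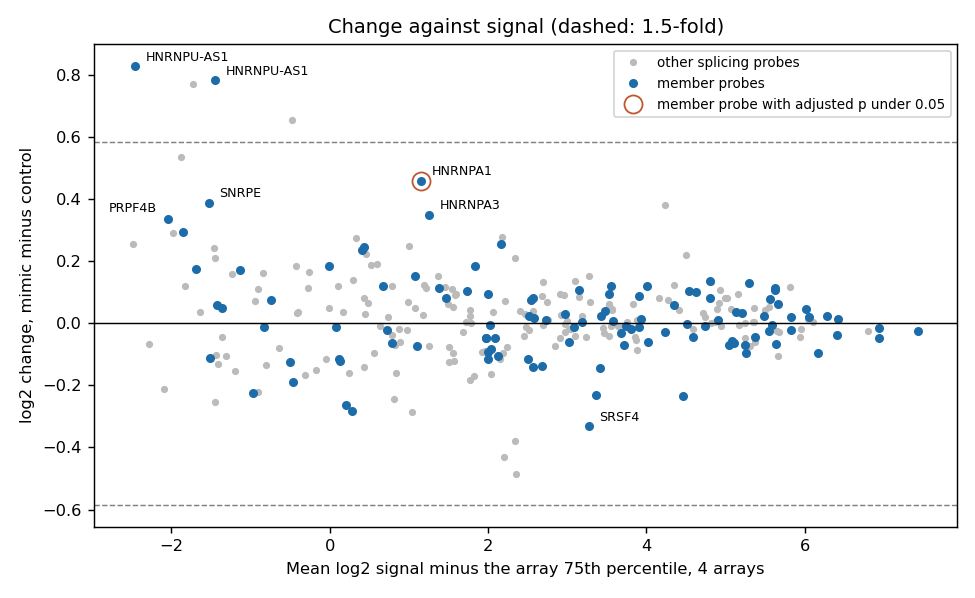
Log2 difference (mimic minus control, vertical axis) against mean log2 signal over the 4 arrays (horizontal axis) for 113 member probes (blue) and the 179 probes of other splicing genes (grey); dashed lines mark 1.5-fold and the ring the 1 called member probe, HNRNPA1. The spread widens toward low signal, where both probes of HNRNPU-AS1 lie above 1.5-fold.

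The files align 15 tested member probes across a gap in the genome, as a probe over an exon junction would be. Such a probe pairs in full only with RNA from which the gap has been removed. Their differences ran from -0.12 to 0.34 with a median of -0.0011, 7 being higher and 0 passing, whereas the 100 contiguous probes had a median of 0.012 with 1 call. Among them were the brightest probes of SF3B1, SNRPA, SNRPA1, SNRPE and HNRNPU.

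The 6 member probes that were not tested all carry Ensembl transcript names. They stand for SF3B2, HNRNPA2B1, HNRNPH1 (2 probes), HNRNPK and SNRPD3, each of which had another probe that was tested. Of the 6, 1 HNRNPH1 probe was well above background on a single mimic array (-0.91, beside -4.89 on the other), and the other 5 on none. Left out by rule were SNRPN, HNRNPKP3 and SNRPD2P2.

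The other genes of the pathway were taken from a list of 132 splicing genes under other names, of which 126 were tested. By the brightest probe 1 of the 126 passed as lower and 0 as higher, whereas 2.76% of all gene names passed in either direction. Their median difference was 0.0036, with 68 higher. The gene that passed was NOVA2, a neuronal splicing regulator, which fell by 0.49 (2.07 and 2.15 with the mimic against 2.61 and 2.58 in the control, limma adjusted p 0.0446). Of the probes other than the brightest, 2 also passed, 1 for RBM10 (-0.43, limma adjusted p 0.0446), an RNA-binding protein that promotes exon skipping, and 1 for SF1 (0.65, limma adjusted p 0.0392), the first protein to bind the branch point. The brightest probes of RBM10 and SF1 gave 0.06 and -0.006 and did not pass. Over the 179 tested probes of these genes 2 passed as lower and 1 as higher, while 2.62% of all tested probes passed. By group, the factors of U1, U2 and the branch point had 15 of 19 genes higher (median 0.05), those of U4/U6, U5 and the LSM ring 14 of 18 (median 0.05), the activation and catalysis proteins 8 of 21 (median -0.0155), and the regulators of alternative splicing 10 of 26 (median -0.0182). Over all 15454 gene names tested, 6905 were higher. Under spike-in scaling all 4 of these medians were negative, with 3 of the 19, 0 of the 18, 0 of the 21 and 1 of the 26 genes higher. None of these groups held a called gene except the last, with NOVA2. The minor spliceosome, snRNP assembly and exon junction complex genes had medians between -0.0038 and 0.0023, signs that turned with the scaling, and the SR-related proteins and SR kinases had 0.07 (-0.12 under spike-in scaling), with 0 called.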

How the data were processed

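Gene expression was measured on 4 one-color Agilent arrays. The deposited files hold spot intensity values from Feature Extraction 10.7.3.1 per the file headers, background-subtracted and detrended by the authors' scanner software and not normalized between arrays; a whole-series value table deposited by the authors holds the same intensity, rounded, and served as an alternative, with 0 columns matched to no sample. Control spots and outlier spots (356 to 395 per array) were left out, replicate spots of a probe were averaged as log2, and the array's 75th percentile over all 50599 probes was subtracted. No spot was saturated. Detection on an array meant that a share of 0.5 or more of the usable spots lay well above background, and a probe was tested when detected on each array of 1 group or of both. The precision is limited by the 2 arrays per group.

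The mimic was compared with the control by limma (version 3.58.1, R version 4.3.3) through lmFit and eBayes with no covariates, with Benjamini-Hochberg adjustment over all 20328 probes and a threshold of 0.05. The limit of 1.5-fold carried no test. The gene value was that of its brightest probe, and contrasts between probes of a gene were fitted over all 4874 contrasts on the array. The limma steps were tested on simulated data. Members, lists and tests were chosen with earlier results of these data known. The text names every member probe that passed, 25 core members by role, the 4 largest falls and rises among genes detected on all 4 arrays, and 5 of the largest contrasts; HNRNPA1L2, HNRNPCL1, HNRNPR, SF3B14, SNRPB2, the members given by range and the genes of the other lists were named after their values were seen. One member gene is counted in all totals but not reported here by itself, and the figures leave it out. Of the 121 member probes, 111 matched a RefSeq accession (GRCh38.p14) and 10 a symbol or synonym. Coordinates are those of the files (hg19), and no genome sequence or transcript annotation of that build was used here.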

Additional observations from a re-analysis of the deposited data

How the results depend on the processing

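The count of 1 member probe called (0 lower, 1 higher) and of 1 other splicing gene called stayed the same under robust eBayes, the series values, scaling to detected probes and quantile normalization. Normexp gave 7 member probes (2 lower, 5 higher), 3 other genes and 0 member probes over 1.5-fold. Under it 7.62% of all tested probes passed, beside 2.62% in the main fit. An intensity trend in eBayes gave 16 (4 lower, 12 higher) and 14 other genes, with 15.2% of all probes passing. Spike-in scaling gave 65 (61 lower, 4 higher) and 66 other genes, with 47.2% of all probes passing. Its medians were -0.1956 for the members and -0.1834 for the other genes. The filter on all 4 arrays gave 2 calls (1 lower, 1 higher) and 1 probe over 1.5-fold, with 3.04% of the probes it kept passing. No filter gave 0 calls, 0 other genes and 5 probes over 1.5-fold, all higher. The 2-fold criterion left 1. The methods' t-test gave 20 member probes (4 lower, 16 higher), 19 other genes and 5 contrasts unadjusted, and 0 of each after Benjamini-Hochberg. With the replicate number as a block, 0 member probes, 0 other genes and 0 contrasts passed in limma; replicate 1 minus replicate 2 correlated at only 0.0346 between the groups across probes, so the numbers pair nothing, and the block uses up a residual degree of freedom. With each array left out (its partner was then taken to vary as the other group does), member calls and calls among other genes were 0 to 0, and 3 member probes stayed over 1.5-fold each time. Member contrasts passed under no adjusted alternative. The slide as a block was not run, since all arrays share 1 slide and scan. The cause of these shifts was not tested, except that the spike-in shift follows from its own scaling and that no filter tests more and dimmer probes.

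Signs near 0 turned. Under spike-in scaling the brightest probes of PRPF3 (-0.0679), PRPF8 (-0.1747), SF3A3 (-0.1548), SF3B4 (-0.1381), SRSF2 (-0.0564), SRSF5 (-0.0872), SRSF7 (-0.0674), U2AF1 (-0.1674), U2AF2 (-0.0736), HNRNPA2B1 (-0.1243), SNRPA1 (-0.1001), SNRPB (-0.1638) and SNRPE (-0.0808) and the downstream probe of PRPF38B (-0.1106) became negative. Normexp turned U2AF1 (-0.0103) and HNRNPU (0.0086), and scaling to detected probes HNRNPU (0.0140), SNRPA (0.0082) and SNRPD1 (0.0111). Leaving out 1 array gave ranges across 0 for PRPF8 (-0.0061 to 0.0308), SF3B4 (-0.1405 to 0.2382), U2AF1 (-0.0325 to 0.0717), HNRNPU (-0.0353 to 0.033), SNRPA (-0.0361 to 0.0222) and SNRPD1 (-0.0392 to 0.031). None of the 37 named probes turned otherwise, and 492 of their 555 values under alternatives kept both direction and side of the threshold.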
